A study of Bos taurus and Bos grunniens x Bos taurus and Bos grunniens with 18 samples.

Results

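The genes described here are 39 splicing factor genes, measured in the testes of cattle-yaks, yaks and cattle. They are all rows of the mRNA table whose symbol starts with SRSF, HNRNP, SF3A or SF3B, with 1 HNRNP gene left out by rule, and values of FPKM (fragments per length of transcript, relative to all mapped fragments of that library) were added up within a gene. That gave 11 SRSF genes, 19 HNRNP genes and 9 SF3A and SF3B genes, of 19994 genes in the table. Each had 1 transcript row except HNRNPD and HNRNPM, and 41 rows of 22118 were used.

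Testes came from 3 cattle-yaks, labelled Dzo and given as hybrids of Bos grunniens and Bos taurus, 3 yaks (Bos grunniens) and 3 cattle (Bos taurus). All 9 animals were 4 years old, came from 1 cooperative and were castrated, and none had an experimental treatment or an engineered allele. The labels do not say which species was the dam of the hybrids. Whole testis tissue was sequenced after depletion of ribosomal RNA, so a difference in RNA per cell and a difference in the number of cells of a type cannot be told apart.

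Before translation, introns are cut from a transcript by the spliceosome, which is built anew on each intron. SR proteins, encoded by the SRSF genes, carry an RNA-binding domain and a tail rich in arginine and serine, bind mostly exonic sequences and help recruit the spliceosome. hnRNP proteins, encoded by the HNRNP genes, coat nascent transcripts and often act against the use of a splice site. The SF3A and SF3B proteins belong to the U2 particle, which recognises the branch point of an intron. Testis is known for a large number of alternative transcripts, many of them in meiotic and later germ cells.

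All 39 genes passed the filter of at least 1 FPKM in at least 3 libraries, as did 14091 genes of the table, and the lowest value of any of the 39 in any library was 5.99 FPKM, for HNRNPH2 in a yak. The 39 genes together took 0.977, 0.942 and 0.959% of the summed FPKM of the cattle-yak libraries, 0.543, 0.564 and 0.594% of the yak libraries and 0.578, 0.604 and 0.581% of the cattle libraries. The cattle-yak share was higher than in each of the 6 parent libraries, in which the shares of yaks and cattle overlapped. Spread between animals was small: the median SD of these genes on the log2 scale was 0.08 in cattle-yaks, 0.09 in yaks and 0.09 in cattle, against 0.15, 0.16 and 0.14 over all genes tested. The genes were not matched for level in that comparison, and the filter let in genes far less abundant than these.

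**Figure D1:**
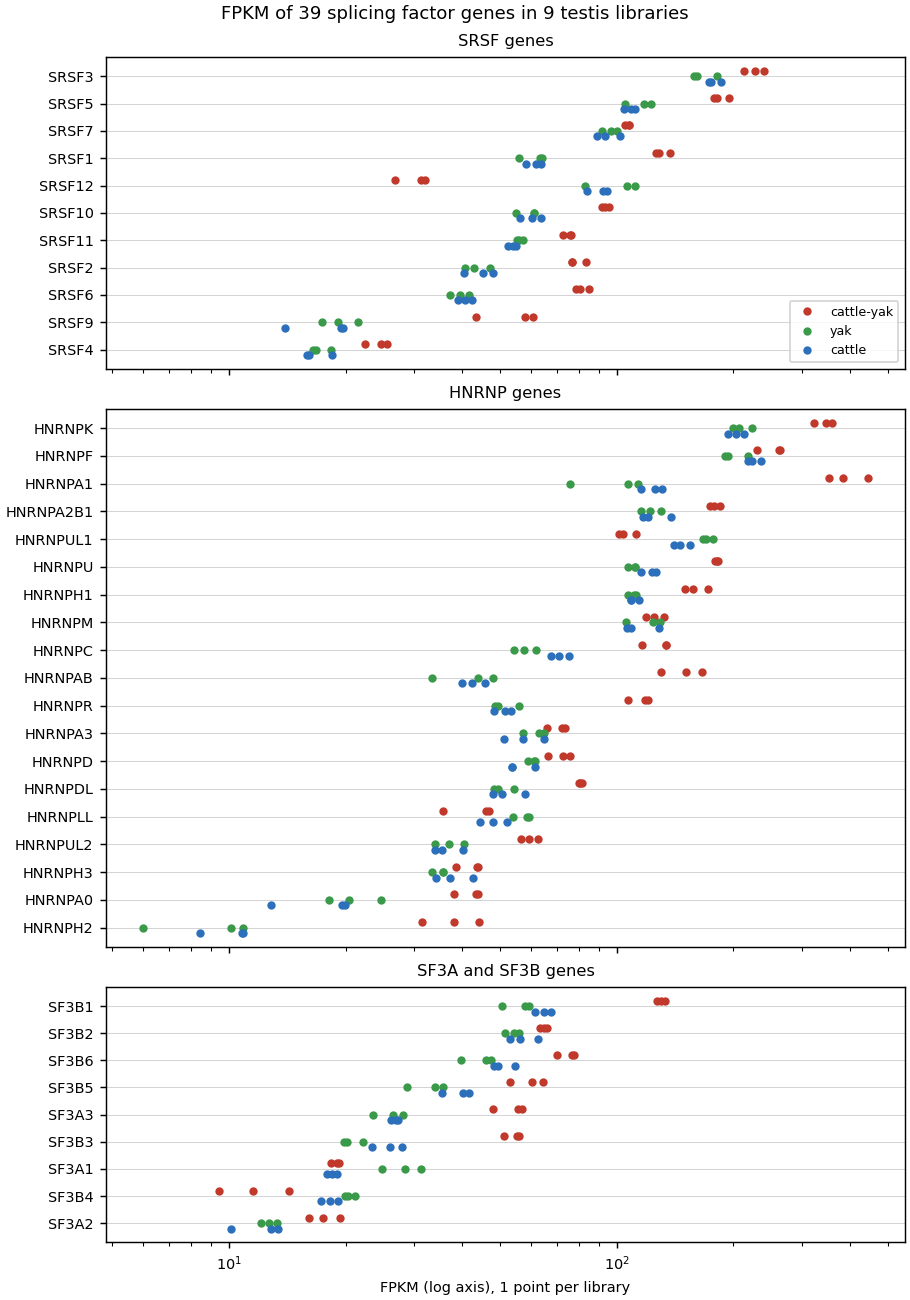
FPKM of each of the 39 genes on a log axis, with 1 point per library, 3 libraries for each of cattle-yak, yak and cattle. Most cattle-yak points lie to the right of both parents, and those of SRSF12, HNRNPUL1 and SF3B4 lie to the left.

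Facts of the whole table set the frame. Cattle-yak libraries stood apart from the 6 parent libraries on the first principal component, at 120.2 to 146.4 against −86.9 to −57.4, and that component held 87.8% of the variance. Among 12 spermatid genes, all lower in cattle-yaks than in either parent by limma (adjusted p under 0.05), the summed level was 18.2 to 105 FPKM in cattle-yaks, 22030 to 24550 FPKM in yaks and 17230 to 29070 FPKM in cattle, and 1 of them, ACRV1, was at 0 in at least 1 library. All 9 tested spermatogonial markers, 9 Sertoli markers and 6 Leydig markers were higher in cattle-yaks, with summed levels of 425 to 548, 1829 to 2145 and 1500 to 2122 FPKM there, against 125 to 160, 393 to 553 and 242.5 to 562 FPKM in yaks and 180.5 to 206, 400.5 to 517 and 194 to 344 FPKM in cattle. Spermatocyte markers summed to 522 to 805 FPKM in cattle-yaks, 514 to 575 FPKM in yaks and 564 to 641 FPKM in cattle. Of these 10 markers 3 were higher and 2 lower against cattle, and 2 higher and 2 lower against yaks. Of 5 macrophage markers 3 were higher and 1 lower against cattle, and 4 higher and 1 lower against yaks. Of 5 endothelial markers 4 were higher and 1 lower against each parent, and all 5 peritubular markers were higher. The part of this makeup of the tissue in the values of the splicing genes was not tested.

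The hybrid was set against each parent to ask which genes depart from both. Of the 39 genes 29 were called higher and 3 lower against cattle, and 31 higher and 5 lower against yaks (limma on log2(FPKM + 1), adjusted p under 0.05 over all genes tested). That is 74.4 and 79.5% higher, while 54.4 and 55.3% of all genes tested were called higher, and 7.69 and 12.8% lower against 30.0 and 30.7% of all genes. Against both parents 28 rose and 3 fell, 71.8 and 7.69% of these genes, and 50.7 and 27.0% of all genes did so. HNRNPM and SRSF7 were called against neither parent, and no gene was called in opposite directions. In 31 genes all 3 cattle-yak libraries lay above all 6 parent libraries, and in 3 they lay below, where 51.7 and 27.6% of all genes tested did so. The 2 comparisons share the cattle-yak libraries.

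Set beside the whole table, the size of these shifts depended on the scaling. For FPKM as deposited the median log2 fold change of the 39 genes was 0.57 against cattle and 0.66 against yaks. Over all genes tested it was 0.50 and 0.54. With 0.1 in place of 1 added to FPKM before the log, the medians of the 39 genes were 0.574 and 0.672. Those of all genes tested were then 0.581 and 0.631, so against cattle the 39 genes no longer exceeded all genes. When libraries were scaled by median ratios, which brings the median of all genes to 0.02 and 0.003, that of the 39 genes came to 0.01 and 0.04, with 13 higher and 10 lower against cattle and 12 higher and 13 lower against yaks. Under that scaling 39.4 and 40.4% of all genes tested were called higher and 40.5 and 42.0% lower. After quantile normalisation 33 of the genes were higher against each parent. The medians of all 39 were then 0.78 and 0.89 against cattle and yaks, beside 0.41 and 0.39 over all genes tested. There 2 genes were lower against cattle and 5 against yaks, and 52.1 and 51.8% of all genes were higher and 31.4 and 32.9% lower. Under all 3 scalings, 12 genes were called higher and 2 lower than both parents, 30.8 and 5.13% of these genes, and 34.9 and 25.9% of all genes tested. The 12 higher genes were HNRNPA0, HNRNPA1, HNRNPAB, HNRNPC, HNRNPH2, HNRNPR, SF3A3, SF3B1, SF3B3, SRSF1, SRSF6 and SRSF9, and the 2 lower genes were SF3B4 and SRSF12. For the other genes, a direction given here is that of FPKM as deposited.

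**Figure D2:**
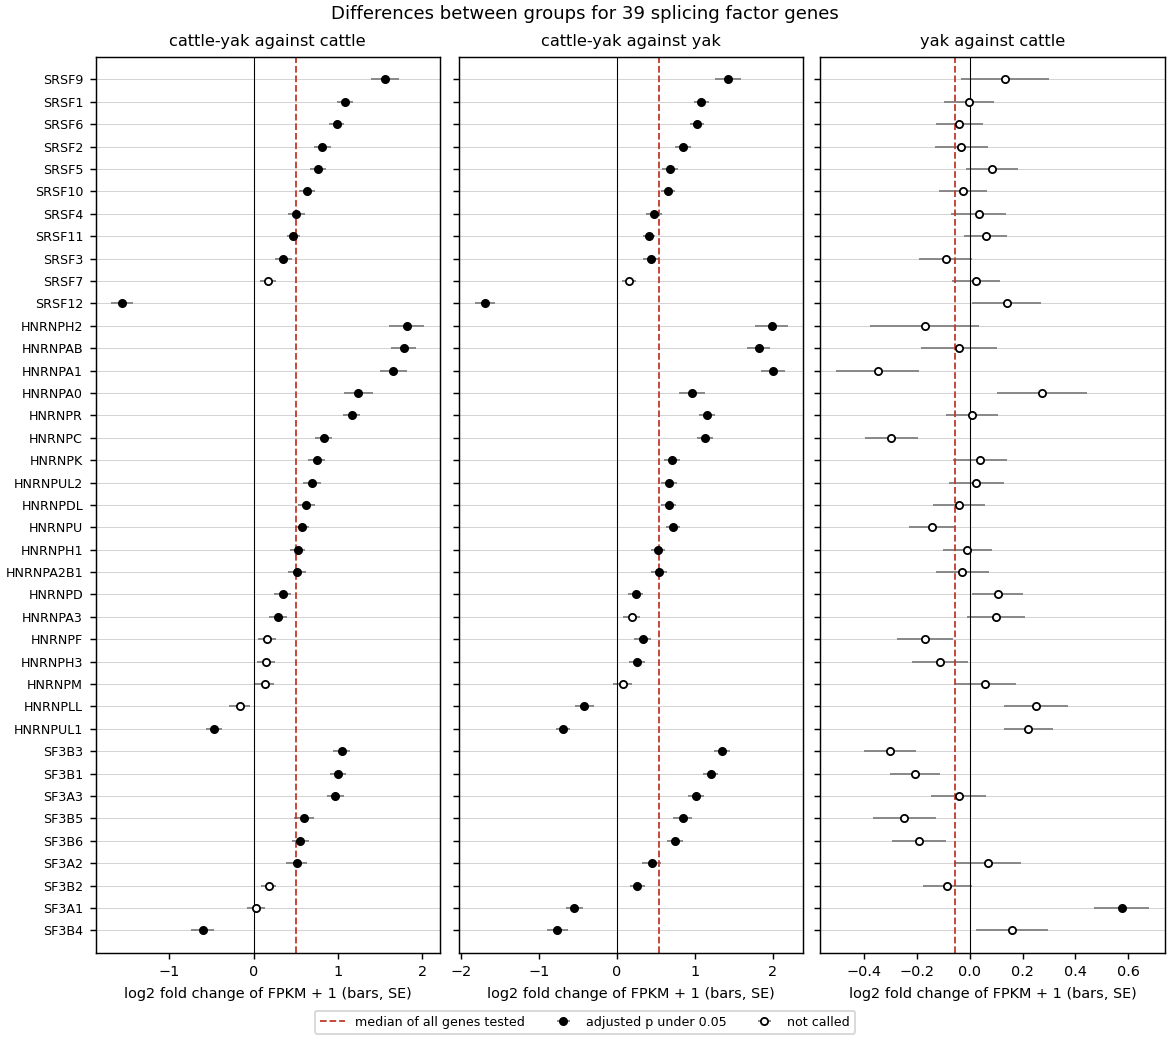
Log2 fold change of FPKM + 1 with its SE for each gene in the 3 comparisons, filled where the adjusted p of limma was under 0.05, with the median of all genes tested as a dashed line. The axes differ between panels, and the yak against cattle panel holds 1 filled point, SF3A1.

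Among SR proteins, 9 of 11 genes rose against each parent and 1 fell, with medians of 0.63 against cattle and 0.66 against yaks. That is 81.8% higher and 9.09% lower, where 54.4 and 55.3% of all genes tested were higher and 30.0 and 30.7% lower. Medians of all genes tested were 0.50 and 0.54. Under median-ratio scaling 36.4 and 27.3% of the SRSF genes were higher and 18.2 and 27.3% lower, with medians of 0.07 and 0.03. Of all genes, 39.4 and 40.4% were then higher and 40.5 and 42.0% lower. SRSF12, an SR protein known for opposing other SR proteins in the choice of splice sites, was the one that fell for FPKM as deposited. It had 32.1, 31.3 and 26.8 FPKM in cattle-yaks, 112, 82.7 and 106 FPKM in yaks and 92.2, 83.9 and 94.6 FPKM in cattle. No cattle-yak library came near a parent library, and the log2 change was −1.70 ± 0.13 (SE) against yaks (limma, adjusted p = 9.44e-07) and −1.56 ± 0.13 against cattle (adjusted p = 2e-06). Median-ratio scaling made it −2.32 against yaks and −2.11 against cattle. SRSF12 took 2.77% of the summed SRSF FPKM in cattle-yaks, against 12.9% in yaks and 11.8% in cattle. By mean level it had rank 10 of 11 in cattle-yaks, rank 3 in yaks and rank 4 in cattle. Its libraries overlapped those of SRSF5 and SRSF7 in yaks and those of SRSF7 in cattle.

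SRSF9, an SR protein that binds exonic enhancers, rose most in the family. Its level was 43.3, 60.9 and 58.0 FPKM in cattle-yaks, 17.4, 19.2 and 21.5 FPKM in yaks and 19.7, 19.5 and 14.0 FPKM in cattle. The cattle-yak mean was 2.79 times that of yaks and 3.05 times that of cattle, with log2 changes of 1.42 ± 0.17 against yaks (SE, limma, adjusted p = 1.59e-05) and 1.56 ± 0.17 against cattle (adjusted p = 1.01e-05). SRSF1, the founding SR protein and a regulator of exon inclusion, averaged 131 ± 5.80 FPKM in cattle-yaks, 61.2 ± 4.54 FPKM in yaks and 61.4 ± 2.67 FPKM in cattle (SD, n = 3 each). SRSF6 averaged 81.3 ± 3.05 FPKM in cattle-yaks, 39.5 ± 2.21 FPKM in yaks and 40.6 ± 1.74 FPKM in cattle. The log2 change of SRSF1 was 1.08 against each parent, and that of SRSF6 was 1.02 against yaks and 0.98 against cattle.

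The 3 SRSF genes with the highest mean FPKM over all 9 libraries were SRSF3, SRSF5 and SRSF7, and their log2 changes were smaller than that of SRSF1. SRSF3, a small SR protein that also takes part in mRNA export, had 213, 228 and 240 FPKM in cattle-yaks, 158, 161 and 181 FPKM in yaks and 175, 186 and 173 FPKM in cattle. Its rise of 0.44 ± 0.10 against yaks and 0.35 ± 0.10 against cattle (limma, adjusted p = 0.00192 and 0.00805) turned to −0.19 and −0.22, without a call, under median-ratio scaling. SRSF5 had 195, 182 and 178 FPKM in cattle-yaks, 105, 118 and 123 FPKM in yaks and 109, 112 and 104 FPKM in cattle. Every cattle-yak library of SRSF5 lay above every parent library, and it rose by 0.68 against yaks and 0.76 against cattle on the log2 scale. Median-ratio scaling ended both calls (limma, adjusted p = 0.653 and 0.0753). SRSF7, close to SRSF3 in its RNA-binding domain, had 107, 108 and 105 FPKM in cattle-yaks, 91.6, 96.8 and 100.02 FPKM in yaks and 93.6, 102 and 88.8 FPKM in cattle. All 3 cattle-yak libraries lay above all parent libraries, but it was not called against either parent (limma, adjusted p = 0.150 and 0.104), was lower under median-ratio scaling (adjusted p = 0.000631 and 0.00265) and higher after quantile normalisation (adjusted p = 0.000883 and 0.00219).

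The other SR genes rose by 0.41 to 0.85 on the log2 scale in both comparisons. They were SRSF2, which binds exonic enhancers and acts in transcription elongation, SRSF4, SRSF10, a general repressor of splicing when dephosphorylated, and SRSF11. Against cattle SRSF2 was still called after median-ratio scaling, while SRSF4 and SRSF10 were called against neither parent and SRSF11 was called lower against yaks. SRSF10 averaged 93.7 ± 1.79 FPKM in cattle-yaks, 59.2 ± 3.44 FPKM in yaks and 60.2 ± 3.75 FPKM in cattle.

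Among hnRNP genes the calls were 14 higher and 1 lower of 19 against cattle, and 15 higher and 2 lower against yaks, with medians of 0.57 and 0.66. That is 73.7 and 78.9% higher, beside 54.4 and 55.3% of all genes tested, whose medians were 0.50 and 0.54. The shares lower were 5.26 and 10.5%, beside 30.0 and 30.7%. Under median-ratio scaling 31.6% were higher against each parent and 26.3 and 36.8% lower, with medians of 0.01 and 0.04. Of all genes, 39.4 and 40.4% were then higher and 40.5 and 42.0% lower. HNRNPA1, which binds splicing silencers and represses nearby exons, had 353, 384 and 446 FPKM in cattle-yaks, 75.6, 107 and 113 FPKM in yaks and 126, 131 and 116 FPKM in cattle. The lowest cattle-yak library stood far above the highest parent library, and the log2 change was 2.003 ± 0.16 (SE) against yaks (limma, adjusted p = 1.15e-06) and 1.65 ± 0.16 against cattle (adjusted p = 4.75e-06). By level it had rank 1 of the 19 in cattle-yaks, where its range overlapped that of HNRNPK, rank 8 in yaks and rank 5 in cattle. Mammalian genomes carry many processed copies of HNRNPA1, and the sources used here do not say how reads shared with them were counted, so its level is uncertain, as are those of HNRNPF, HNRNPH1 and HNRNPH2, which resemble each other.

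HNRNPAB, a relative of the A and B group that binds single-stranded nucleic acid, had 130, 151 and 166 FPKM in cattle-yaks, 33.5, 44.0 and 48.0 FPKM in yaks and 39.9, 45.7 and 42.5 FPKM in cattle. That was 3.56 times the yak mean and 3.50 times the cattle mean, with log2 changes of 1.82 ± 0.14 and 1.78 ± 0.14 (limma, adjusted p = 1.18e-06 and 1.68e-06). HNRNPH2, an X-linked gene whose protein binds runs of G, was the least abundant hnRNP gene in all 3 groups, overlapping HNRNPA0 in cattle-yaks. It had 31.5, 38.0 and 44.1 FPKM in cattle-yaks, 5.99, 10.1 and 10.9 FPKM in yaks and 10.9, 10.8 and 8.40 FPKM in cattle, with log2 changes of 1.98 ± 0.21 and 1.81 ± 0.21. HNRNPR, HNRNPA0 and HNRNPC, which binds runs of U, were the other hnRNP genes called higher under every scaling. For HNRNPA0 against yaks the call under median-ratio scaling was narrow (0.35, limma, adjusted p = 0.0496). HNRNPR averaged 116 ± 7.21 FPKM in cattle-yaks, 51.4 ± 4.14 FPKM in yaks and 51.0 ± 2.60 FPKM in cattle. HNRNPC averaged 128 ± 10.4 FPKM in cattle-yaks, 58.0 ± 3.85 FPKM in yaks and 71.4 ± 3.89 FPKM in cattle, and HNRNPA0 averaged 41.8 ± 3.27 FPKM in cattle-yaks, 21.1 ± 3.34 FPKM in yaks and 17.4 ± 3.96 FPKM in cattle.

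HNRNPUL1, which acts in transcription and in the response to DNA damage, went the other way. Its level was 104, 112 and 102 FPKM in cattle-yaks, 177, 170 and 167 FPKM in yaks and 140, 145 and 155 FPKM in cattle. All cattle-yak libraries were below all parent libraries, and it fell by 0.69 ± 0.09 on the log2 scale against yaks (limma, adjusted p = 4.17e-05) and by 0.47 ± 0.09 against cattle (adjusted p = 0.000741). Quantile normalisation ended the call against cattle (adjusted p = 0.0587). Its relative HNRNPUL2 rose, though not under median-ratio scaling. HNRNPUL2 had 56.8, 59.3 and 62.6 FPKM in cattle-yaks, 34.0, 37.0 and 40.5 FPKM in yaks and 35.4, 40.1 and 34.1 FPKM in cattle. HNRNPLL, a regulator of splicing of the leucocyte antigen CD45, was called lower against yaks and not against cattle, with 43.0 ± 6.25 FPKM in cattle-yaks, 57.4 ± 2.98 FPKM in yaks and 48.1 ± 3.89 FPKM in cattle (limma, adjusted p = 0.0079 against yaks and 0.217 against cattle). HNRNPLL was lower against cattle as well under median-ratio scaling (−0.72, adjusted p = 0.00044), and it was not called in yak against cattle (limma, adjusted p = 0.18).

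The most abundant hnRNP genes of the parents changed less than HNRNPA1. HNRNPK, which binds runs of C, had 323, 347 and 360 FPKM in cattle-yaks, 206, 199 and 223 FPKM in yaks and 204, 213 and 194 FPKM in cattle. Its rise of 0.71 and 0.75 on the log2 scale lost both calls under median-ratio scaling (limma, adjusted p = 0.502 and 0.122). HNRNPF, which like HNRNPH2 binds runs of G, had 231, 263 and 264 FPKM in cattle-yaks, 194, 191 and 218 FPKM in yaks and 223, 218 and 235 FPKM in cattle. It was called against yaks (0.33 ± 0.11, adjusted p = 0.0137, limma) and not against cattle (0.16 ± 0.11, adjusted p = 0.181), and median-ratio scaling called it lower and quantile normalisation higher against both. Without yak replicate 2 its call against yaks was lost (adjusted p = 0.0525).

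Of the remaining hnRNP genes, HNRNPA2B1, HNRNPDL, HNRNPH1 and HNRNPU, a nuclear scaffold protein, rose by 0.51 to 0.72 in both comparisons, and none was called against either parent after median-ratio scaling. HNRNPD, known as AUF1 for its binding to AU-rich mRNA, rose by 0.24 against yaks and 0.34 against cattle, HNRNPA3 was called higher against cattle (0.29) and HNRNPH3 against yaks (0.26), while the values against the other parent were 0.19 and 0.14. HNRNPD lost its call against yaks without cattle-yak replicate 2 or 3 or any 1 yak, HNRNPA3 lost its call against cattle without cattle-yak replicate 1 or 3 or cattle replicate 1 or 3, and HNRNPH3 lost its call against yaks without cattle-yak replicate 1 or 2, cattle replicate 1 or any 1 yak. Median-ratio scaling called HNRNPD, HNRNPA3 and HNRNPH3 lower against yaks. HNRNPM, which promotes exon skipping, averaged 125 ± 6.63 FPKM in cattle-yaks, 120 ± 12.5 FPKM in yaks and 115 ± 12.2 FPKM in cattle, and was not called against yaks or cattle (limma, adjusted p = 0.582 and 0.315). HNRNPM was called lower against both under median-ratio scaling (−0.56 against yaks and −0.43 against cattle) and higher against both after quantile normalisation (0.45 and 0.42).

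Transcript rows were given for the pair of genes that had more than 1. Of the HNRNPD transcripts, ENSBTAT00000056365 held 51.8, 60.0 and 57.1% of the FPKM of the gene in cattle-yaks, 47.4, 51.4 and 49.1% in yaks and 53.4, 54.4 and 51.0% in cattle, so cattle-yaks and cattle overlapped. For HNRNPM, ENSBTAT00000011559 held 58.1, 52.8 and 54.5% in cattle-yaks, 54.0, 54.5 and 55.4% in yaks and 49.9, 54.8 and 49.0% in cattle, and all 3 groups overlapped.

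In the U2 particle 6 of 9 SF3 genes were called higher and 1 lower against cattle, and 7 higher and 2 lower against yaks, with medians of 0.55 and 0.75. That is 66.7 and 77.8% higher, beside 54.4 and 55.3% of all genes tested, whose medians were 0.50 and 0.54. The shares lower were 11.1 and 22.2%, beside 30.0 and 30.7%. Under median-ratio scaling 33.3% were higher and 33.3% lower against each parent, with medians of −0.01 and 0.12. Of all genes, 39.4 and 40.4% were then higher and 40.5 and 42.0% lower. SF3B1, the subunit that clamps the branch point, had the highest mean of the 9 in each group, overlapping SF3B2 in yaks and cattle. It had 133, 130 and 127 FPKM in cattle-yaks, 50.7, 58.0 and 59.5 FPKM in yaks and 61.4, 65.0 and 67.8 FPKM in cattle. Its cattle-yak libraries lay far above those of both parents. The log2 changes were 1.20 ± 0.10 against yaks (limma, adjusted p = 1.15e-06) and 1.00 ± 0.10 against cattle (adjusted p = 4.66e-06). SF3B3, a scaffold that holds SF3B1, had 55.4, 51.2 and 56.1 FPKM in cattle-yaks, 19.8, 20.1 and 22.2 FPKM in yaks and 23.4, 28.0 and 26.0 FPKM in cattle, and rose by 1.35 ± 0.10 and 1.05 ± 0.10 on the log2 scale. SF3A3 averaged 53.5 ± 4.72 FPKM in cattle-yaks, 26.1 ± 2.29 FPKM in yaks and 26.8 ± 0.53 FPKM in cattle.

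SF3B4, which contacts the transcript upstream of the branch point, fell while the other SF3B genes rose or stayed without a call. It had 11.5, 14.3 and 9.44 FPKM in cattle-yaks, 21.2, 19.9 and 20.3 FPKM in yaks and 18.3, 19.1 and 17.3 FPKM in cattle. Its log2 change was −0.77 ± 0.14 against yaks (limma, adjusted p = 0.000327) and −0.61 ± 0.14 against cattle (adjusted p = 0.00172), and it was lower under all 3 scalings. In cattle-yaks it took the last place of the 9, below SF3A2, from which its libraries were separate, and in both parents SF3A2 was last.

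The other SF3 subunits were intermediate. SF3B6, which lies at the branch-point adenosine, had 70.2, 77.7 and 76.8 FPKM in cattle-yaks, 39.8, 47.4 and 46.0 FPKM in yaks and 49.5, 54.6 and 48.4 FPKM in cattle. It rose by 0.75 ± 0.10 and 0.55 ± 0.10, with values of 0.12 and −0.01 and no call under median-ratio scaling. SF3B5 rose by 0.84 and 0.59 and SF3A2 by 0.44 and 0.51 against yaks and cattle, also without a call under that scaling, and SF3A2 lost its call against yaks after quantile normalisation. SF3B2 had 63.6, 66.1 and 64.9 FPKM in cattle-yaks, 54.4, 51.6 and 55.9 FPKM in yaks and 53.2, 56.4 and 62.8 FPKM in cattle. The cattle-yak libraries lay just above both parents and it was called against yaks (0.26 ± 0.09, limma, adjusted p = 0.0218), a call lost without cattle-yak replicate 2 or yak replicate 2 (adjusted p = 0.0606 and 0.0752) and turned to −0.36 by median-ratio scaling (adjusted p = 0.00343). Against cattle SF3B2 was not called for FPKM as deposited (adjusted p = 0.101), but was called higher without cattle replicate 3 (adjusted p = 0.041) and after quantile normalisation (0.28, adjusted p = 0.00755), and lower under median-ratio scaling (−0.38, adjusted p = 0.00277).

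Yak testes were set against cattle testes to see how the parents differ, and only SF3A1 was called. Of the 39 genes 1 was higher in yaks and 0 lower by limma, where 8.36 and 10.7% of all genes tested were called. At an unadjusted p under 0.05 the counts were 2 and 2, and no share of all genes is given at that threshold. SF3A1, the largest SF3A subunit, had 28.4, 31.2 and 24.8 FPKM in yaks and 18.5, 19.03 and 17.9 FPKM in cattle, a log2 change of 0.58 ± 0.10 (limma, adjusted p = 0.00414), and cattle-yaks had 18.4, 19 and 19.2 FPKM. Cattle-yak libraries overlapped those of cattle (log2 change of 0.03 ± 0.10, adjusted p = 0.807) and lay below those of yaks (−0.55 ± 0.10, adjusted p = 0.000534), and under median-ratio scaling SF3A1 was lower than in cattle as well (−0.51, adjusted p = 0.0017). HNRNPA1 and SF3B3 were next in size between yaks and cattle, at −0.35 ± 0.16 and −0.30 ± 0.10 (limma, adjusted p = 0.153 and 0.0607), without a call. Quantile normalisation called 1 gene lower in yaks, HNRNPC, where 9.35% of all genes were called lower. The submitters' processing notes name a cattle genome build alone, and the part of that build in differences of yak from cattle was not tested.

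**Figure D3:**
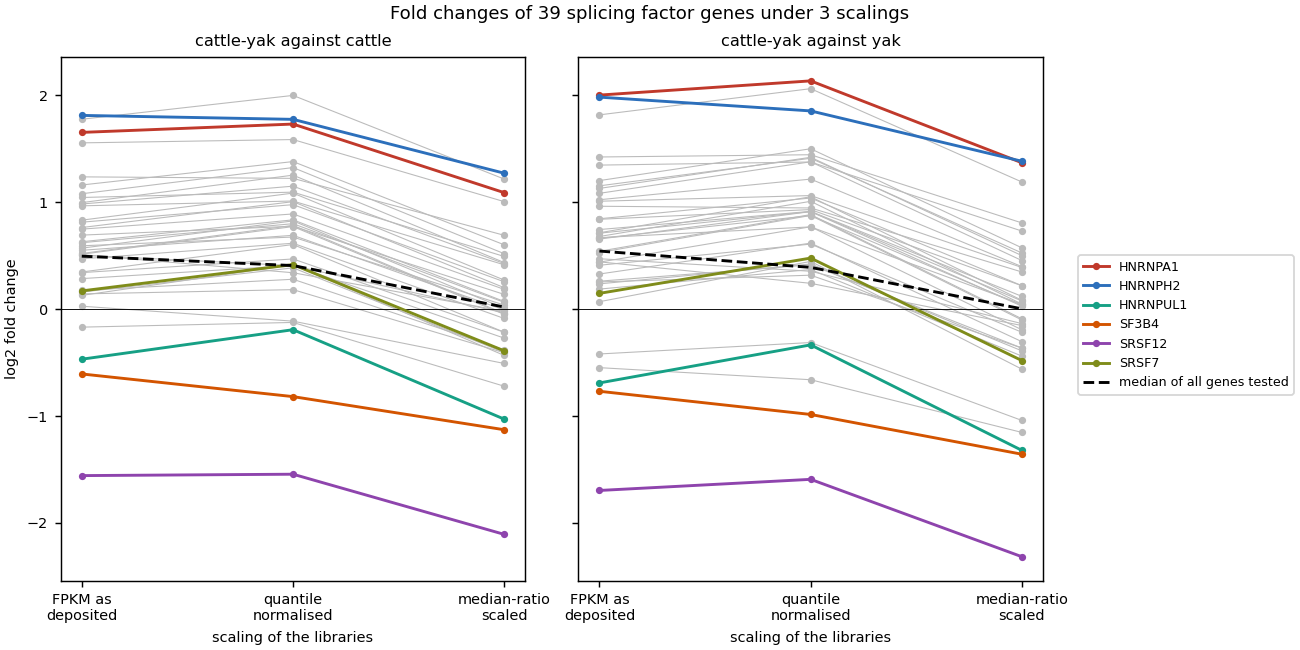
Log2 fold change of the 39 genes, 1 line each, for FPKM as deposited, after quantile normalisation and after median-ratio scaling, with 6 genes coloured and the median of all genes tested dashed. Median-ratio scaling lowers all lines, SRSF7 changes sign with it, and SRSF12 and SF3B4 stay below 0 and HNRNPA1 and HNRNPH2 above 0 throughout.

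Ratios of 2 genes within a library do not depend on a scaling factor common to the library, and they show unequal change, not which gene changed. The 6 pairs were chosen after their values were seen and are given without a test. SRSF12 to SRSF10, its closest relative in the family, was 0.350, 0.328 and 0.286 in cattle-yaks, 2.02, 1.35 and 1.74 in yaks and 1.45, 1.39 and 1.68 in cattle. SRSF12 exceeded SRSF10 in all 6 parent libraries and was under it in all 3 cattle-yak libraries. HNRNPUL1 to HNRNPUL2 averaged 1.78 ± 0.14 in cattle-yaks, 4.64 ± 0.55 in yaks and 4.04 ± 0.46 in cattle. SF3B4 to SF3B1, subunits of 1 complex, averaged 0.0904 ± 0.0183 in cattle-yaks, 0.368 ± 0.0430 in yaks and 0.282 ± 0.0232 in cattle, so the mRNA of these subunits did not move in proportion.

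SF3A3 to SF3A1 averaged 2.84 ± 0.19 in cattle-yaks, 0.930 ± 0.0737 in yaks and 1.45 ± 0.0466 in cattle, with no overlap among the 3 groups. HNRNPA1 to HNRNPA2B1 averaged 2.20 ± 0.26 in cattle-yaks, 0.805 ± 0.161 in yaks and 0.994 ± 0.0492 in cattle. HNRNPH2 to HNRNPH1 averaged 0.2397 ± 0.0559 in cattle-yaks, 0.0814 ± 0.0224 in yaks and 0.0905 ± 0.0119 in cattle. In each of the 6 ratios the cattle-yak libraries did not overlap those of a parent.

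**Figure D4:**
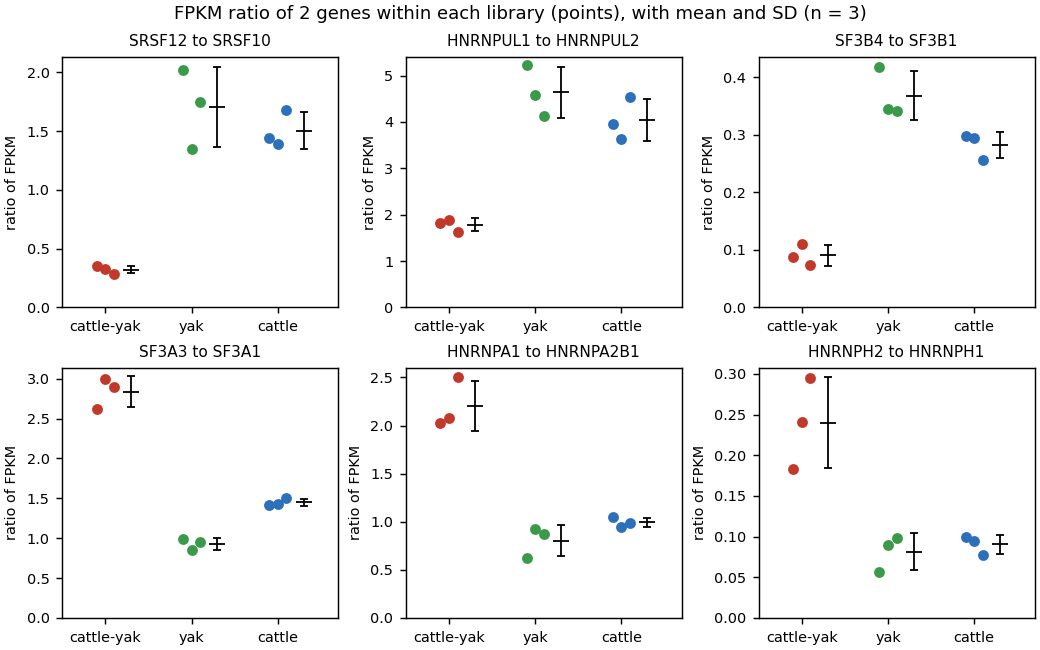
FPKM ratio of 2 genes in each library (points) with mean and SD for cattle-yak, yak and cattle, on linear axes that start at 0. Cattle-yak points lie below both parents for SRSF12 to SRSF10, HNRNPUL1 to HNRNPUL2 and SF3B4 to SF3B1, and above them in the other panels.

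Other genes of the pathway were described from 10 lists with 173 symbols, of which 170 were matched and 162 tested. Calls against cattle were 107 higher and 23 lower, and against yaks 108 higher and 28 lower, with medians of 0.54 and 0.68 (limma, adjusted p under 0.05), beside 0.50 and 0.54 over all genes tested. That is 66.0 and 66.7% higher and 14.2 and 17.3% lower, where 54.4 and 55.3% of all genes tested were higher and 30.0 and 30.7% lower. Under median-ratio scaling there were 54 higher and 55 lower against cattle and 61 higher and 57 lower against yaks, 33.3 and 37.7% higher and 34.0 and 35.2% lower, where 39.4 and 40.4% of all genes were higher and 40.5 and 42.0% lower. The counts of each list stand against the same shares of all genes for FPKM as deposited. The kinases of SR proteins, which phosphorylate the arginine-serine tail, included some of the lower genes. Of 8 kinases tested, 4 were higher and 4 lower against each parent. Their list also held TNPO3, the import receptor of SR proteins, which was called lower against yaks (−0.37) and not called against cattle (−0.17). SRPK2 averaged 68.7 ± 1.11 FPKM in cattle-yaks, 304 ± 29.5 FPKM in yaks and 325 ± 25.2 FPKM in cattle, and SRPK1 averaged 53.7 ± 10.4 FPKM in cattle-yaks, 202 ± 2.96 FPKM in yaks and 210 ± 6.30 FPKM in cattle. Their log2 changes were −2.13 and −1.91 against yaks and −2.22 and −1.96 against cattle (limma, adjusted p of at most 5.57e-07). PRPF4B, a kinase that acts on the tri-snRNP, rose to 53.5 ± 0.949 FPKM in cattle-yaks, against 18.4 ± 1.70 FPKM in yaks and 21.5 ± 1.02 FPKM in cattle, and these 3 calls held under every scaling.

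Among SR-like and SR-related proteins 14 of 18 rose against cattle and 16 rose against yaks, with medians of 0.78 and 0.90. BCLAF1 rose to 111 FPKM in cattle-yaks, against 37.9 FPKM in yaks and 42.8 FPKM in cattle, and RBM39 to 147 FPKM in cattle-yaks, against 65.1 FPKM in yaks and 70.2 FPKM in cattle. TRA2B rose as well, though not under median-ratio scaling. In the list of hnRNP proteins with other symbols 9 of 16 were higher and 2 lower against cattle, and 10 higher and 2 lower against yaks, 56.2 and 62.5% higher beside 54.4 and 55.3% of all genes. RBMX, the X-linked hnRNP G, rose to 50.9 ± 1.61 FPKM in cattle-yaks, against 9.19 ± 2.46 FPKM in yaks and 14.2 ± 1.13 FPKM in cattle. RBMXL2, its germ cell retrocopy, fell to 25.9 ± 7.31 FPKM in cattle-yaks, against 45.4 ± 4.07 FPKM in yaks and 39.3 ± 7.57 FPKM in cattle. MATR3 rose, but not under median-ratio scaling. PCBP2 was not called for FPKM as deposited. It was lower against both parents under median-ratio scaling and higher against yaks after quantile normalisation.

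A further list of splicing regulators, some broadly expressed and some known from particular tissues, held calls in both directions. Of 31 tested, 22 were higher and 7 lower against cattle, and 21 higher and 6 lower against yaks, with medians of 0.56 and 0.62. KHDRBS3, a relative of SAM68 that is known to regulate alternative splicing, fell to a mean of 37.8 FPKM in cattle-yaks, against 304 FPKM in yaks and 245.5 FPKM in cattle. MBNL3, a muscleblind protein, rose to 72.6 ± 4.13 FPKM in cattle-yaks, against 11.7 ± 3.54 FPKM in yaks and 13.7 ± 2.68 FPKM in cattle. QKI rose by 0.62 and 0.52 on the log2 scale against yaks and cattle, not under median-ratio scaling.

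Core parts of the spliceosome were mixed. In the list for recognition of the branch point and 3′ splice site 11 of 15 rose against each parent, while U2AF1L4, a relative of U2AF1, fell to 20.9 FPKM in cattle-yaks, against 104 FPKM in yaks and 74.3 FPKM in cattle, and the helicase DDX39B rose to 68.8 FPKM in cattle-yaks, against 21.8 FPKM in yaks and 24.2 FPKM in cattle. Of 24 tri-snRNP genes 14 were higher and 1 lower against cattle, and 13 higher and 4 lower against yaks, so the shares higher, 58.3 and 54.2%, were near the 54.4 and 55.3% of all genes. SNU13 rose to 49.6 FPKM in cattle-yaks, against 18.5 FPKM in yaks and 18.3 FPKM in cattle, and CD2BP2 fell. Of 24 genes of the catalytic core 17 rose against each parent, 5 fell against cattle and 6 fell against yaks. CDC5L, BUD31 and BCAS2 fell, BCAS2 to 29.7 FPKM in cattle-yaks, against 61.6 FPKM in yaks and 91.2 FPKM in cattle, and the helicase DHX35 rose to 24.1 FPKM in cattle-yaks, against 4.94 FPKM in yaks and 6.51 FPKM in cattle. BUD31 was not called against yaks after quantile normalisation.

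Sm proteins, the ring shared by the splicing particles, were higher in 4 of 7 genes and lower in 1 against cattle, and higher in 5 and lower in 1 against yaks, 57.1 and 71.4% higher beside 54.4 and 55.3% of all genes. SNRPD2 fell to 148 FPKM in cattle-yaks, against 310.5 FPKM in yaks and 270 FPKM in cattle, and SNRPD3 rose to 167 FPKM in cattle-yaks, against 66.0 FPKM in yaks and 59.5 FPKM in cattle. In the U1 list LUC7L3 rose under every scaling, and SNRPC was not called for FPKM as deposited. In the exon junction complex 8 of 11 were higher and 1 lower against cattle, and 7 higher and 1 lower against yaks. RNPS1 rose to 55.6 FPKM in cattle-yaks, against 17.8 FPKM in yaks and 20.2 FPKM in cattle, UPF3A fell to 13.7 FPKM in cattle-yaks, against 44.0 FPKM in yaks and 48.0 FPKM in cattle, and MAGOH was called higher as deposited and lower under median-ratio scaling.

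**Figure D5:**
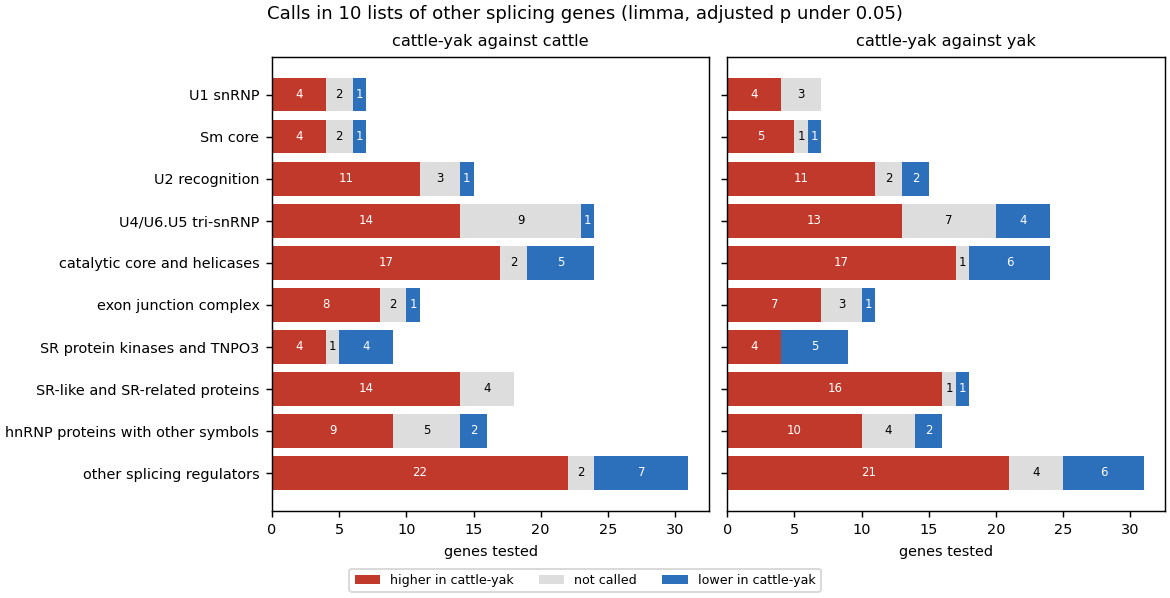
Number of genes tested in each of 10 lists that were higher in cattle-yak, not called or lower in cattle-yak by limma at an adjusted p under 0.05, for FPKM as deposited. Higher calls outnumber lower ones in each list but that of the SR protein kinases and TNPO3, with 4 and 4 against cattle and 4 and 5, TNPO3 included, against yak.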

How the data were processed

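Total RNA of 9 testes, cleared of ribosomal RNA, went into strand-specific libraries read from both ends at 125 nt, per the labels' protocols. The authors deposited FPKM per transcript. The submitters' processing notes name Trimmomatic, HISAT2 2.0.5, StringTie 1.3.4, Cufflinks, Bowtie and the build UMD3.1, with no role for each. Read depth is unknown: at most 1.87% of low values shared 1 ratio between libraries, so read numbers could not be worked back and count models were not used. The circRNA table names no host gene and was not used here, and the small RNA libraries were not analysed here.

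FPKM was summed per gene. Genes with at least 1 FPKM in at least 3 libraries (14091) were fitted as log2(FPKM + 1) by limma 3.58.1 (R 4.3.3) using a group term over 9 libraries and a trended prior. This scale understates changes of genes with low FPKM. P-values are two-sided and adjusted by Benjamini-Hochberg over all genes, and a call is an adjusted p under 0.05. The fit was tested on simulated data. Replicates are separate animals per the labels.

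Members and lists were chosen with earlier results of these data known. Values in every library are given for the 3 most abundant genes of each family, the 4 highest and 4 lowest called against both parents (3 were lower), the 3 that differed most between yaks and cattle, and pairs called in opposite directions. From each list the 2 most abundant genes and the largest change in each direction were taken, some not shown. Alternatives were 2 scalings, a pseudocount of 0.1, 2 filters, the most abundant transcript, only the groups compared, each library left out, and a replicate block.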

Additional observations from a re-analysis of the deposited data

How the results depend on the processing

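Median-ratio scaling, which divides each library by its median ratio to the others, moved most counts. Against cattle it gave 13 of the 39 genes higher and 10 lower, with 7 calls gained and 16 lost. Against yaks it gave 12 and 13, with 3 calls gained, 14 lost and 5 turned from higher to lower. Among the listed splicing genes, the counts against cattle became 54 higher and 55 lower, and those against yaks 61 and 57. For yak against cattle, 9 listed genes were higher and 17 lower for FPKM as deposited. Those were 5.56 and 10.5% of the listed genes tested, beside 8.36 and 10.7% of all genes. With median-ratio scaling 16 were higher and 17 lower, 9.88 and 10.5%. No share of all genes is given for that comparison under this scaling, so these counts cannot be set against all genes. Median-ratio scaling turned the log2 change of SRSF3 to −0.22 against cattle and −0.19 against yaks, and of SRSF7 to −0.39 and −0.48. That of HNRNPF turned to −0.41 and −0.30, and that of SF3B2 to −0.38 and −0.36. Against cattle, SF3B6 turned to −0.007 and SF3A1 to −0.51. The cause was not tested. Quantile normalisation gave 1 gene lower in yaks than cattle. Pseudocount, filters, choice of transcript and groups in the fit kept the 6 counts of calls. Leaving out 1 library gave 28 to 29 genes higher and 3 lower against cattle, and 27 to 31 higher and 5 lower against yaks. Replicate numbers did not pair the animals: same-numbered deviations correlated at −0.17 to 0.23, and the replicate block gave 28 higher against cattle, without HNRNPA3, and 30 against yaks, without HNRNPH3. With no depth, precision per gene rests on 3 animals a group. The planned circRNA results were not run.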
